A study of Mus musculus with 14 samples.

Results

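The genes described here belong to cytochrome P450 families 1 to 4, the families that oxidize drugs, plant compounds, fatty acids, arachidonic acid and steroids. They were taken as every probe set annotated to exactly 1 symbol of the form Cyp1, Cyp2, Cyp3 or Cyp4 followed by a subfamily letter and a number. The rule gave 58 of the 22690 probe sets, which stand for 49 of the 12394 genes with 1 symbol. Family 1 had 3 genes, family 2 had 31, family 3 had 5 and family 4 had 10, in 16 subfamilies. A further 4 probe sets of these families carried several symbols and were left out. The rule used no measured value.

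P450 enzymes are heme proteins of the endoplasmic reticulum that insert an oxygen atom into their substrate, with electrons passed on by P450 reductase and cytochrome b5. The small intestine is, after the liver, a main site of this chemistry, and its absorptive enterocytes meet the compounds first. Many of the genes lie in tandem clusters of close relatives, and nuclear receptors such as PXR (Nr1i2) and CAR (Nr1i3), and the aryl hydrocarbon receptor, are known to switch subsets of them on.

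The 14 samples were total RNA of mouse small intestine, hybridised to single-colour arrays. Villi, the projections lined mainly by enterocytes, came from C57BL/6 mice aged 12 weeks (3 arrays, titled V12, V41 and V275), and crypts, the pockets with stem, dividing and Paneth cells, from the same strain and age (3 arrays, titled K12, K21 and K41). Endoderm, from which the gut epithelium arises, and mesenchyme, the source of its connective tissue and muscle, were dissected at embryonic day 12 (E12) after collagenase digestion, with 4 arrays a layer. No strain is given here for the fetuses, and no agent or allele for any group. Fetal material was pooled, from 10 to 12 fetuses for 3 arrays of each layer and from 35 for the other one.

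The values came as 2 tables that were normalized apart. All 6 adult arrays are in the first, together with 1 array of each E12 layer (the pools of 35 fetuses), and the second holds the 6 remaining E12 arrays. All values are log2 signals, and a level is not set against that of another gene, since probes differ in brightness. The 30th percentile of an array's signals was 5.71 to 5.88 in the first table and 4.70 to 4.78 in the second, and a group mean below it is called near background here, where the deposited values compress differences. Only genes above the 30th percentile of a table in at least 3 arrays were tested. Values of villus arrays are given in the order V12, V41, V275, those of crypt arrays in the order K12, K21, K41, and those of E12 arrays of the second table in the order 2, 3, 4.

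The labels were checked against marker lists. Of the enterocyte list, 10 of 10 tested genes were higher in villi than in crypts, and the list averaged 12.45 to 12.87 in villus arrays against 7.73 to 8.67 in crypt arrays. The Paneth list averaged 8.56 to 10.29 in villi against 13.10 to 13.31 in crypts, so villus arrays held Paneth signal, the highest of them V12. Leukocyte genes averaged 8.30 to 8.82 in villi against 7.58 to 7.72 in crypts, an average over genes that went opposite ways. Of 7 tested leukocyte genes 4 were higher in villi and 2 lower, against 16.9% and 15% of all genes tested. Gzma had 10.55 to 11.89 in villi and 6.67 to 7.01 in crypts, while Lyz2 had 7.34 to 10.08 and 11.96 to 12.14. All 6 epithelial genes were higher, and all 7 stromal, 6 smooth muscle and 6 endothelial genes lower, in E12 endoderm than in E12 mesenchyme. In whole tissue fractions like these, fewer cells of a type and less RNA per cell cannot be told apart.

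Between villi and crypts, a block of 14 P450 genes from families 2, 3 and 4 was higher in villi, by 1.06 to 6.09 on the log2 scale. It held every tested Cyp3a gene, 3 of 4 tested Cyp4f genes, Cyp4b1, Cyp4v3, and 1 or 2 members each of the Cyp2b, Cyp2c, Cyp2d and Cyp2j subfamilies. No member was lower in villi by the test. Among the 14 was Cyp3a11, the main PXR-induced Cyp3a enzyme of mouse liver and intestine.

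Of the 49 genes, 32 passed the filter on low signals in the first table. limma called 14 of them higher, where 16.9% of the 9962 genes tested were called higher, and 0 lower, where 15% were. At an unadjusted p under 0.05 the counts were 16 higher and 1 lower, where 4210 of the 9962 genes tested reached it in either direction. With a trended and robust prior 1 gene, Cyp2d34, was called lower, where 1552 of all genes tested were. The median difference over all 49 genes was 0.20, against 0.0049 over all genes, and the 14 genes stand at one end of a wide range. Cyp3a11, Cyp3a25 and Cyp2d22 had crypt means near background and passed the filter through the villus arrays, so the count over tested members is a description. Villi and crypts had no overlapping arrays in 21 of the 32 genes, as was so in 47.8% of all genes tested.

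**Figure D1:**
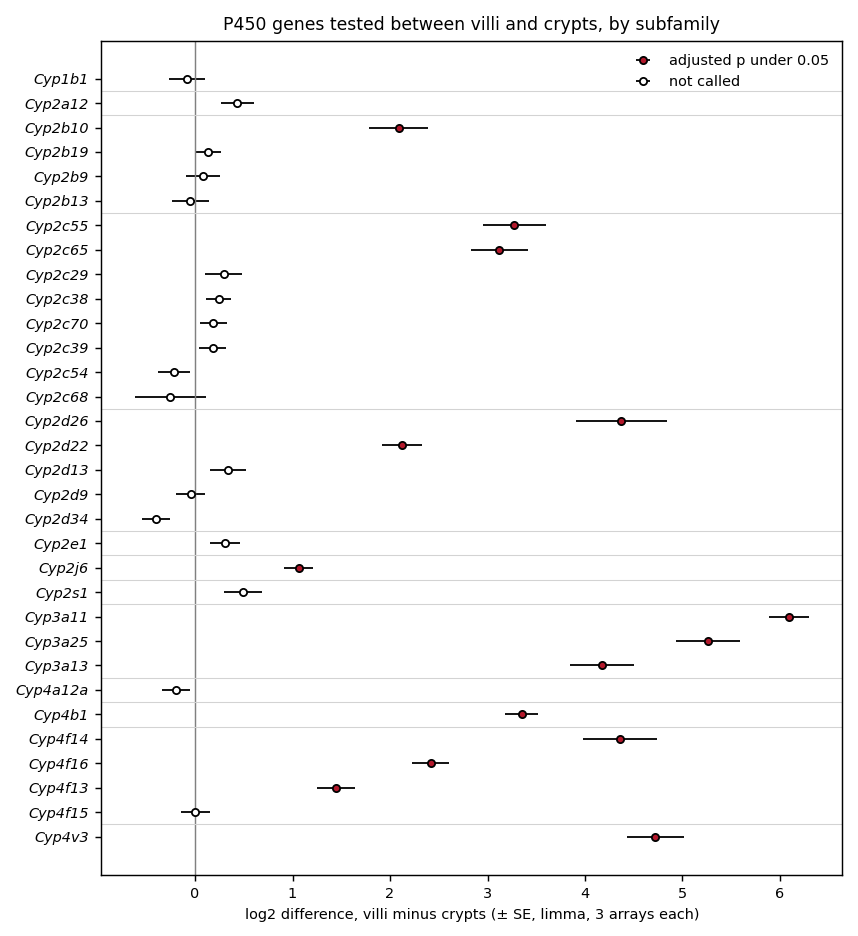
Log2 difference between villi and crypts (x axis, ± SE from limma, 3 arrays each) for the 32 P450 genes tested, grouped by subfamily down the y axis. Filled points have an adjusted p under 0.05: these 14 genes lie between 1.06 and 6.09, and the open points between -0.40 and 0.49.

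Family 3 consists of enzymes with wide active sites that oxidize many drugs, steroids and bile acids. Cyp3a11 had 11.90, 11.36 and 11.79 in villi, against 5.89, 5.51 and 5.38 in crypts. All villus arrays were far above all crypt arrays, and the crypt mean was near background. The difference was 6.09 ± 0.20 (SE, adjusted p = 6.82e-06), and its size is uncertain with the crypt level so dim.

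Its genomic neighbour Cyp3a25 had 10.60, 9.70 and 10.60 in villi, against 5.35, 4.46 and 5.31 in crypts. The groups were again far apart, with villus array V41 and crypt array K21 the lowest of their groups. The difference was 5.26 ± 0.32 (SE, adjusted p = 9.44e-05), also with a crypt mean near background.

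Cyp3a13, a Cyp3a enzyme known from intestine and encoded apart from the others of its subfamily, had 10.52, 11.45 and 10.85 in villi, against 6.37, 6.53 and 7.40 in crypts. Here villus array V41 was the highest of its group, unlike for Cyp3a11 and Cyp3a25, and the crypt level was above background. The difference was 4.18 ± 0.33 (SE, adjusted p = 0.000253). The remaining Cyp3a genes, Cyp3a16 and Cyp3a44, which are known from fetal and female mouse liver, stayed at or below 4.79 in villi and did not pass the filter.

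The upstream sequences of the 3 Cyp3a genes that were higher in villi are shown because they moved together while lying at separate places on chromosome 5. Cyp3a11 and Cyp3a25 are adjacent, and 122 protein-coding genes lie between Cyp3a13 and the next Cyp3a gene on the array. Each window covers the 250 bases before a RefSeq gene start (GRCm38.p6), at chr5:145879855-145880104 for Cyp3a11, chr5:146009619-146009868 for Cyp3a25 (the first of 2 starts listed) and chr5:137921620-137921869 for Cyp3a13, all on the minus strand and read 5′ to 3′. Capitals mark matches to motifs searched on both strands: AGGTCA (nuclear receptor half-site), GTTAAT (HNF1 half-site), CAAAGTCCA (a known HNF4 motif), GCGTG (core of the aryl hydrocarbon receptor site) and TATAAA (the letters of a TATA box, wherever they stood in the window).
Cyp3a11: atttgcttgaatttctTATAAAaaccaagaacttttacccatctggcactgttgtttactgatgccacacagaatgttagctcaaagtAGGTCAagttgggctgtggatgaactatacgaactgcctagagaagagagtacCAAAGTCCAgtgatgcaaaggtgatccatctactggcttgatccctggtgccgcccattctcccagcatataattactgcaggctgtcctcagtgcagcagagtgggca
Cyp3a25: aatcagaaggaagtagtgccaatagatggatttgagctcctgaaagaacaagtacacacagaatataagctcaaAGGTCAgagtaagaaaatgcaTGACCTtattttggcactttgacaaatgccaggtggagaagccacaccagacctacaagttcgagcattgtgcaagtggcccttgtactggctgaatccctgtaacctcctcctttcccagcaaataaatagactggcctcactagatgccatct
Cyp3a13: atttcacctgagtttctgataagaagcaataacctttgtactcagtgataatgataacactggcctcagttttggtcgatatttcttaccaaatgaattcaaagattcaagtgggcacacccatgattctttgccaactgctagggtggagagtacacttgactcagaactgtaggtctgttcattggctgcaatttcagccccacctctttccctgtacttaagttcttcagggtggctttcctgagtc
Cyp3a11 held TATAAA (-234 to -229 from the start), the nuclear receptor half-site and the HNF4 motif. Cyp3a25 held the half-site on each strand, the reverse one printed as TGACCT, and Cyp3a13 held none of the motifs in its window, so the 3 genes shared no motif of the 5.

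Family 2 is the largest and most varied of the families. Its Cyp2c enzymes oxidize arachidonic acid and drugs. Cyp2c55 had 9.82, 8.66 and 9.43 in villi, against 6.46, 5.98 and 5.63 in crypts, a difference of 3.28 ± 0.33 (SE, adjusted p = 0.000524). Its neighbour Cyp2c65 had 10.06, 9.63 and 10.54 in villi, against 7.17, 6.45 and 7.24 in crypts, a difference of 3.12 ± 0.29 (SE, adjusted p = 0.000412). In both genes every villus array was above every crypt array. The single Cyp2c65 probe set is of a type that may bind transcripts of related genes as well.

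The other 6 Cyp2c genes tested were not called and lay between -0.25 and 0.29. Among them, Cyp2c68 was well above background in both compartments, with 8.65, 7.77 and 9.30 in villi, against 9.13, 8.78 and 8.57 in crypts. The groups overlapped, and villus array V41 was the lowest. Its difference was -0.25 ± 0.36 (SE, adjusted p = 0.645), and it turned to 0.15 without villus array V41.

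Windows of the same kind are shown for the adjacent pair Cyp2c55 and Cyp2c65, which were higher in villi, and for Cyp2c68 of the same cluster on chromosome 19, which was not. They lie at chr19:39006769-39007018 (plus strand), chr19:39060756-39061005 (plus strand) and chr19:39741102-39741351 (minus strand), in GRCm38.p6 of RefSeq.
Cyp2c55: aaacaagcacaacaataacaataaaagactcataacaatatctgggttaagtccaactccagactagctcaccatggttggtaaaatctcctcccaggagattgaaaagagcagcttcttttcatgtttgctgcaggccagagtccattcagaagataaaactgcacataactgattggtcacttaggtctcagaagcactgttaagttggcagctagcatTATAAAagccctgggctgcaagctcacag
Cyp2c65: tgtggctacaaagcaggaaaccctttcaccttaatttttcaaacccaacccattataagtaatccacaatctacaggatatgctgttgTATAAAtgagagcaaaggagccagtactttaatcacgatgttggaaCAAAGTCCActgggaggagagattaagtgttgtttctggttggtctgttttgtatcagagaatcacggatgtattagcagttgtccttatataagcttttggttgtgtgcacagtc
Cyp2c68: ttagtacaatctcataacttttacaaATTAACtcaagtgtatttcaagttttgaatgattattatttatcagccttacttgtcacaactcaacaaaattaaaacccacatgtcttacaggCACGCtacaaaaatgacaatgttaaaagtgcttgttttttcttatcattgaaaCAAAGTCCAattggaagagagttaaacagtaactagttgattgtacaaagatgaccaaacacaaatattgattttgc
Cyp2c55 held only TATAAA, at -29 to -24 from the start. Cyp2c65 held TATAAA (-162 to -157) and CAAAGTCCA, and Cyp2c68 held CAAAGTCCA with GTTAAT and GCGTG on the reverse strand (printed as ATTAAC and CACGC).

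Over the families, RefSeq windows were found for 39 of the 49 genes. TATAAA was in 41% of them, against 13.0% of all 27025 promoter windows, and AGGTCA in 28.2%, against 13.8%. GTTAAT was in 5.13%, against 6.52%, and GCGTG in 23.1%, against 28.2%. CAAAGTCCA was in 5 of the 39 windows (12.8%), against 0.381% of all windows, and these were Cyp2c65, Cyp2c68, Cyp2c70, Cyp3a11 and Cyp3a16. This last motif was chosen after some windows had been read, and its 5 genes come from 2 tandem clusters, so their windows share descent.

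Among the 13 genes higher in villi that had a window, 4 held TATAAA, 2 held AGGTCA, 1 held GTTAAT, 4 held GCGTG and 2 held CAAAGTCCA. No motif was in all of them. A match gives letters only and is not evidence of binding.

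In the Cyp2d subfamily, whose human member CYP2D6 metabolizes many basic drugs, Cyp2d26 had 10.99, 9.51 and 11.59 in villi, against 6.39, 6.28 and 6.30 in crypts. The villus arrays spread widely, with array V41 lowest, yet all were far above the tightly grouped crypt arrays. The difference was 4.37 ± 0.47 (SE, adjusted p = 0.000658). Cyp2d22 had 7.87, 8.24 and 7.54 in villi, against 5.96, 5.67 and 5.63 in crypts, where its mean was near background. Its difference was 2.13 ± 0.20 (SE, adjusted p = 0.000459), and its second probe set gave 1.73.

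Cyp2d34 leaned the other way, with 6.42, 6.62 and 6.37 in villi, against 6.88, 6.96 and 6.77 in crypts. The groups did not overlap, but the difference of -0.40 ± 0.14 (SE) missed the threshold (adjusted p = 0.0624). It is the gene that a trended and robust prior calls lower (adjusted p = 0.039). Cyp2d13 (0.34) and Cyp2d9 (-0.05) were not called either. Over all alternatives the adjusted p of Cyp2d34 was 0.039 to 0.469.

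Cyp2b10, the standard gene induced through CAR, had 9.52, 8.69 and 9.82 in villi, against 7.59, 7.14 and 7.03 in crypts. Every villus array was above every crypt array, and array V41 was the lowest villus array. The difference was 2.09 ± 0.30 (SE, adjusted p = 0.00208). The other probe sets of Cyp2b10, both of a cross-hybridizing type, gave 3.98 and 4.08, with villus means of 9.19 and 9.32 and crypt means of 5.21 and 5.24. Cyp2b9, Cyp2b13 and Cyp2b19 were not called, at 0.08, -0.05 and 0.14.

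Cyp2j6, an intestinal member of a subfamily that makes epoxides of arachidonic acid, had 7.82, 7.57 and 7.95 in villi, against 6.62, 6.72 and 6.80 in crypts. The groups were separate but closer than for the genes above, with a difference of 1.06 ± 0.15 (SE, adjusted p = 0.00194). Its neighbour Cyp2j9 and the next gene, Cyp2j5, did not pass the filter.

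Cyp2s1, a dioxin-inducible P450 of epithelia, was well above background in both compartments, with 9.78, 9.09 and 9.53 in villi, against 9.03, 8.87 and 9.02 in crypts. The villus arrays were all above the crypt arrays by a small margin, and the difference of 0.49 ± 0.19 (SE) missed the threshold (adjusted p = 0.0902). Without villus array V41 it was 0.68 and passed (adjusted p = 0.017). Cyp2s1 lies next to Cyp2b10 in the genome.

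Cyp2a12, a testosterone hydroxylase in mouse liver, had 6.91, 6.96 and 7.35 in villi, against 6.79, 6.56 and 6.56 in crypts (difference 0.43, adjusted p = 0.0873). Cyp2e1, the ethanol-oxidizing P450, had 6.33, 6.44 and 6.27 in villi, against 6.28, 5.92 and 5.91 in crypts (difference 0.31, adjusted p = 0.167). Neither difference passed the test. Cyp2f2, known from the airway, and Cyp2g1, known from the olfactory mucosa, did not pass the filter, at 4.84 to 4.85 and 5.65 to 5.72 in villi.

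Family 4 enzymes hydroxylate the end of fatty acid chains and of leukotrienes. Cyp4f14, which acts on leukotriene B4, had 12.14, 12.39 and 12.64 in villi, against 7.17, 8.10 and 8.82 in crypts. The villus arrays lay close together and the crypt arrays spread over more than 1 log2 unit, without overlap. The difference was 4.36 ± 0.38 (SE, adjusted p = 0.000336).

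Its neighbour Cyp4f13 had 8.19, 8.68 and 8.83 in villi, against 7.04, 7.27 and 7.04 in crypts. Cyp4f16 had 9.58, 10.18 and 10.08 in villi, against 7.45, 7.44 and 7.69 in crypts. Both were higher in every villus array, by 1.45 ± 0.19 (SE, adjusted p = 0.00154) and 2.42 ± 0.19 (SE, adjusted p = 0.000253). Cyp4f15, which lies between Cyp4f16 and Cyp4f14, had 6.45, 6.61 and 6.71 in villi, against 6.73, 6.59 and 6.44 in crypts, with overlapping groups and a difference of 0.0028 ± 0.15 (SE, adjusted p = 0.992).

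Cyp4v3, the mouse counterpart of the human fatty acid hydroxylase CYP4V2, had 10.98, 11.08 and 12.12 in villi, against 6.76, 6.67 and 6.59 in crypts. All villus arrays were higher, by 4.72 ± 0.29 on average (SE, adjusted p = 9.56e-05). This Cyp4v3 probe set is of a cross-hybridizing type, and the other one gave 4.25. Cyp4b1, which oxidizes fatty acids and small aromatic compounds, had 9.43, 9.95 and 9.70 in villi, against 6.40, 6.41 and 6.21 in crypts. It too was higher in every villus array, by 3.35 ± 0.17 (SE, adjusted p = 3.62e-05).

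The Cyp4a genes, fatty acid hydroxylases induced through PPAR alpha in liver, did not share this pattern of values. Cyp4a12a had 5.93, 5.84 and 6.08 in villi, against 6.09, 6.04 and 6.32 in crypts (difference -0.20, adjusted p = 0.346), and Cyp4a14 and Cyp4a31 did not pass the filter.

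Family 1 is the set that answers to the aryl hydrocarbon receptor. Cyp1a1 had 5.48, 5.89 and 5.43 in villi, against 5.67, 5.56 and 5.42 in crypts, and neither it nor Cyp1a2 passed the filter. Cyp1b1, which oxidizes estrogens and aromatic hydrocarbons, had 6.56, 6.31 and 6.44 in villi, against 6.88, 6.40 and 6.29 in crypts. The groups overlapped, and the difference was -0.08 ± 0.19 (SE, adjusted p = 0.771).

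**Figure D2:**
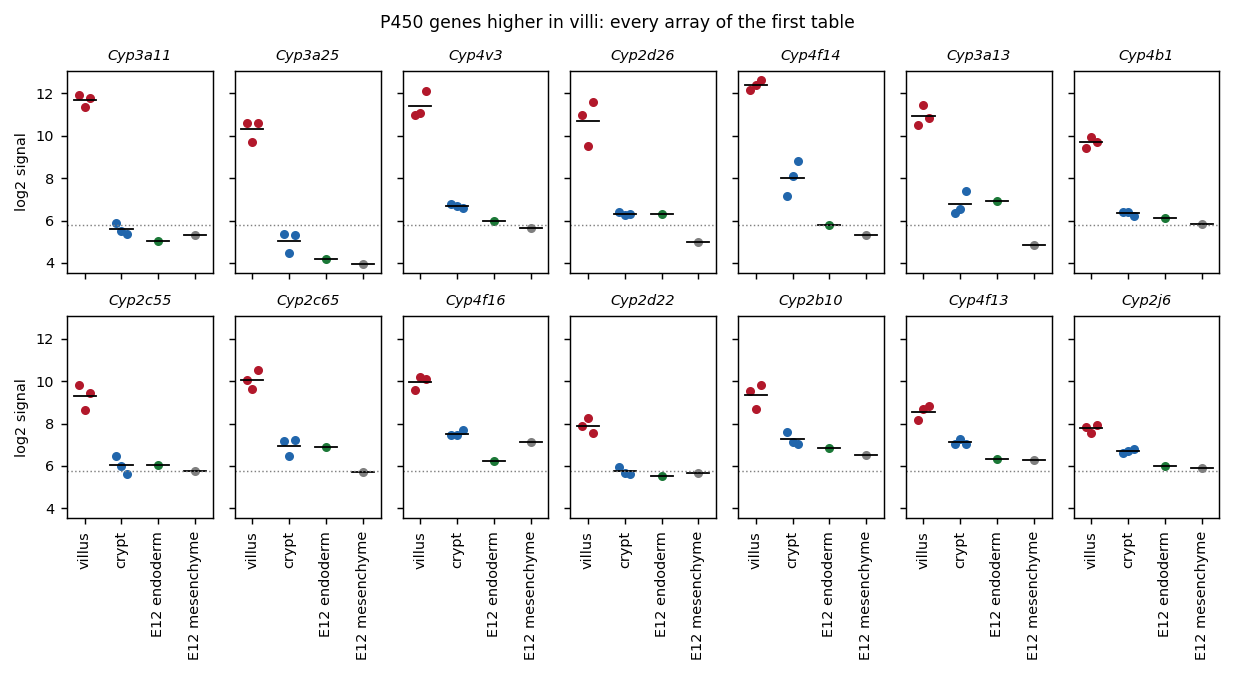
Log2 signal (y axis) in every array of the first table for the 14 P450 genes higher in villi, with villus, crypt, E12 endoderm and E12 mesenchyme from left to right. Each point is 1 array, bars are group means, and the dotted line is the mean 30th percentile of the arrays. Every villus point lies above every other point of its panel.

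The villus arrays were not ordered alike in the 14 genes. Villus array V41 was the lowest for 7 of them (Cyp2b10, Cyp2c55, Cyp2c65, Cyp2d26, Cyp2j6, Cyp3a11 and Cyp3a25), array V12 for 6 (Cyp3a13, Cyp4b1, Cyp4f13, Cyp4f14, Cyp4f16 and Cyp4v3) and array V275 for Cyp2d22. The enterocyte list averaged 12.45, 12.51 and 12.87 in these arrays and the Paneth list 10.29, 8.56 and 9.25. Leukocyte genes averaged 8.54, 8.30 and 8.82. Nr1i2 was also lowest in villus array V41, with 9.65, 8.62 and 9.27. Whether any of these moved with the P450 values was not tested. All 14 genes were called with each array left out in turn.

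Between the E12 layers, 5 P450 genes were higher in endoderm and 3 in mesenchyme. Cyp2s1, Cyp3a13 and Cyp2c68 were higher in endoderm by 3.08 to 3.72 on the log2 scale, and Cyp1b1 differed by -3.42. Of the 49 genes, 12 passed the filter in the second table and 37 were too dim to be tested. limma called 8 of the 12, where 53.1% of the 9442 genes tested were called. Of these 8, Cyp3a13, Cyp2c65, Cyp2d26, Cyp2d22 and Cyp1b1 had a mean near background in 1 layer and passed the filter mainly through the other, so the count is a description. Of the 8, 5 were higher in endoderm, where 27.7% of all genes tested were called higher, and 3 lower, where 25.4% were. The groups did not overlap in 8 of the 12 genes, as in 62% of all genes tested. The median over all 49 genes was 0.05, against 0.04 over all genes.

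**Figure D3:**
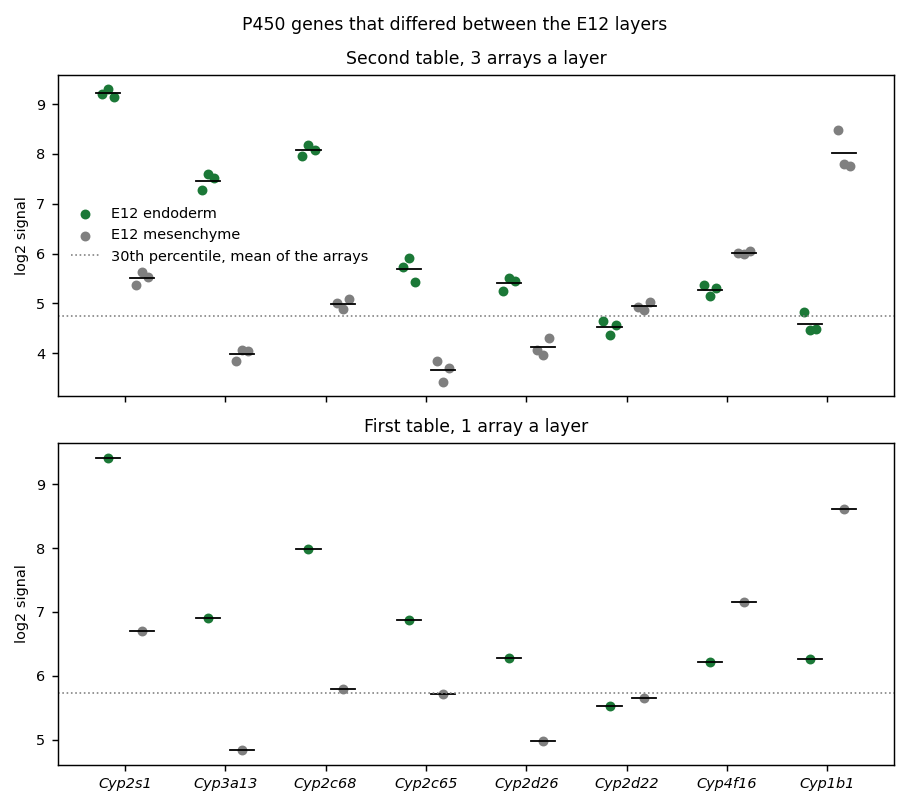
Log2 signal (y axis) of the 8 P450 genes that differed between the E12 layers, in the second table (top, 3 arrays a layer) and the first (bottom, 1 array a layer). Points are arrays, with endoderm left of mesenchyme, bars are means and the dotted line is the mean 30th percentile. Cyp1b1 is the gene with the large difference towards mesenchyme in both tables.

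Cyp2s1 had 9.21, 9.30 and 9.15 in E12 endoderm, against 5.36, 5.63 and 5.52 in E12 mesenchyme. The layers were far apart with little spread within either, a difference of 3.72 ± 0.10 (SE, adjusted p = 2.90e-08). In the E12 pair of the first table it had 9.41 in endoderm and 6.70 in mesenchyme.

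Cyp3a13 had 7.28, 7.60 and 7.51 in E12 endoderm, against 3.84, 4.06 and 4.04 in E12 mesenchyme, which was near background. The difference was 3.48 ± 0.11 (SE, adjusted p = 6.97e-08). It was the one Cyp3a gene tested between the layers. Cyp3a11 had 3.33 to 3.63 and Cyp3a25 had 3.42 to 3.62 in the same endoderm arrays, below their 30th percentile.

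Cyp2c68 had 7.96, 8.17 and 8.08 in E12 endoderm, against 5.00, 4.88 and 5.09 in E12 mesenchyme, a difference of 3.08 ± 0.10 (SE, adjusted p = 6.11e-08). Cyp2c65 had 5.73, 5.91 and 5.43 in endoderm, against 3.85, 3.43 and 3.70 in mesenchyme, a difference of 2.03 ± 0.15 (SE, adjusted p = 9.30e-06). Every endoderm array was above every mesenchyme array for both. Cyp2c55 had 3.77, 3.91 and 3.80 in endoderm, below their 30th percentile. In the E12 endoderm array of the first table Cyp2c55 had 6.05, above that of its array.

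Cyp2d26 had 5.25, 5.51 and 5.45 in E12 endoderm, against 4.07, 3.96 and 4.31 in E12 mesenchyme. Its relative Cyp2d22 had 4.64, 4.36 and 4.57 in endoderm, against 4.93, 4.87 and 5.03 in mesenchyme. The 2 genes of 1 subfamily thus went opposite ways, by 1.29 ± 0.12 (SE, adjusted p = 3.56e-05) and by -0.42 ± 0.10 (SE, adjusted p = 0.0088), each with a layer near background.

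Cyp1b1 had 4.82, 4.47 and 4.49 in E12 endoderm, near background, against 8.48, 7.80 and 7.76 in E12 mesenchyme. No array of one layer came near the other, and the difference was -3.42 ± 0.20 (SE, adjusted p = 1.90e-06). It rests on 1 of 3 probe sets, and the others were near background in both layers. A second probe set differed by -0.91 in the same direction, with means of 3.75 in endoderm and 4.65 in mesenchyme. The third differed by 0.02, with means of 3.77 and 3.75. Cyp4f16 had 5.36, 5.15 and 5.30 in endoderm, against 6.01, 5.99 and 6.05 in mesenchyme, a difference of -0.75 ± 0.09 (SE, adjusted p = 0.000173).

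The 4 genes tested but not called, Cyp2a12, Cyp4f13, Cyp2j6 and Cyp2b10, differed by -0.07 to 0.08 and were close to the 30th percentile in both layers. In the E12 pair of the first table, which these tests did not use, all 8 called genes differed in the same direction. That pair has no replicate in either layer.

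Markers of liver, a neighbouring organ at this age, were among the genes higher in endoderm. Of 5 tested hepatocyte genes 4 were higher, including Afp by 5.84 and Ttr by 4.22. In all, 12 of that list averaged 5.92 to 6.03 in E12 endoderm against 4.60 to 4.74 in E12 mesenchyme. Not all liver genes differed: Alb, Apoh, Hpx and Tat were near background in both layers and were not tested. Alb had 4.39, 4.24 and 4.28 in E12 endoderm, against 4.26, 4.29 and 4.37 in E12 mesenchyme. The part of the liver markers in the P450 values was not tested. Several of these genes are also known from yolk sac and gut endoderm.

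Set against E12 endoderm, crypts were higher for 6 genes, by 0.72 to 2.23 on the log2 scale, and villi for 18, by 0.62 to 6.64. No member was called lower in either adult compartment, also at an unadjusted p under 0.05 and with the trended and robust limma prior. Both comparisons use the same single E12 endoderm array of the first table, so an error of that array enters both, and its spread was taken from the adult groups.

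For crypts against E12 endoderm, 32 of 49 genes were tested. limma called 6 higher, where 8.2% of 10082 genes tested were called higher, and 0 lower, where 15.1% were. Over all genes the split was 827 higher and 1521 lower, and it was 1014 and 1172 after quantile normalization. For villi against E12 endoderm it called 18 of 32 higher, where 17% were called higher, and 0 lower, where 22.1% were. Among the genes called in villi, Cyp3a11, Cyp3a25, Cyp2d22 and Cyp2d34 were near background in the E12 array. Among those called in crypts, Cyp2d34 and Cyp4a12a were. Cyp3a11, Cyp3a25 and Cyp2d22 passed the filter through the villus arrays, so these counts are a description. The median over the 49 genes was 0.36 for crypts and 0.50 for villi, against 0.08 and 0.13 over all genes. The E12 array lay outside the range of the adult arrays in 26 of 32 genes for crypts and 30 of 32 for villi, as in 80.7% and 84.8% of all genes tested.

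**Figure D4:**
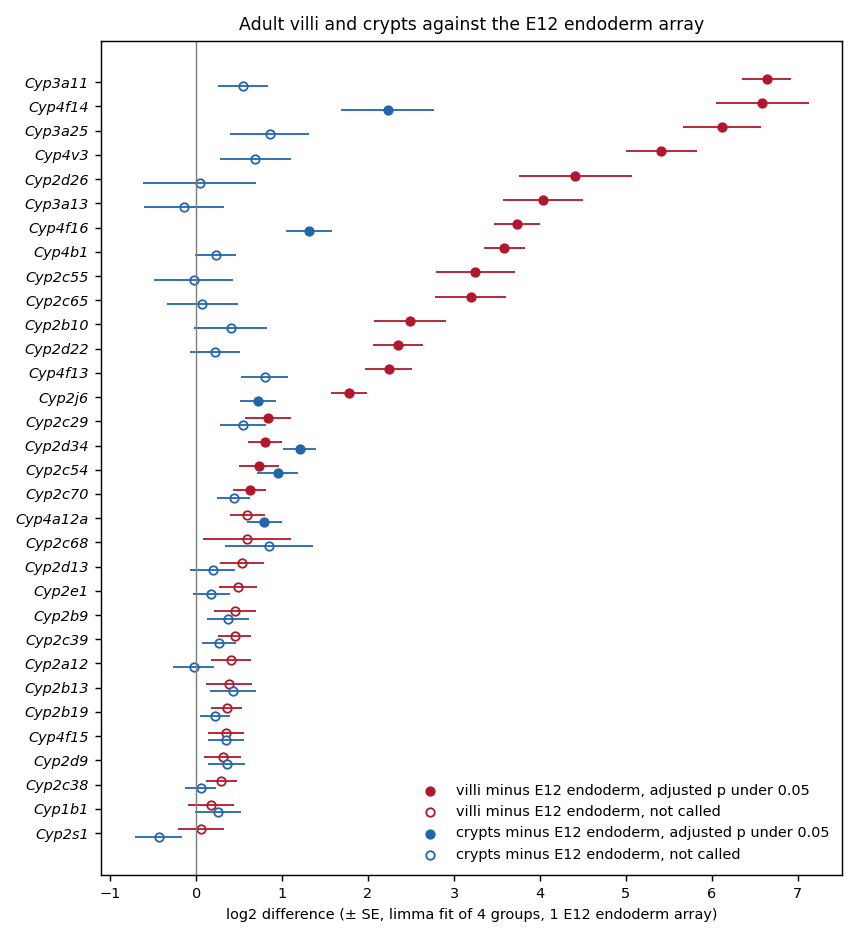
Log2 difference from the E12 endoderm array (x axis, ± SE from limma) in villi (red) and crypts (blue) for the 32 P450 genes tested in the first table, sorted by the villus value. Filled points have an adjusted p under 0.05. The villus points span 0.06 to 6.64 and the crypt points -0.44 to 2.23.

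Cyp3a11 averaged 11.68 in villi and 5.59 in crypts, against 5.05 in the E12 endoderm array. Cyp3a25 averaged 10.30 in villi and 5.04 in crypts, against 4.19 in that array, and Cyp4v3 11.39 and 6.67, against 5.98. In these 3 genes villi stood far above both other groups. Villi were higher than the E12 array by 6.64 ± 0.29, 6.12 ± 0.46 and 5.41 ± 0.42 (SE), and crypts differed from it by 0.55 ± 0.29, 0.86 ± 0.46 and 0.69 ± 0.42 (SE), none of which passed the test. For Cyp3a11 and Cyp3a25 the E12 value was near background, so the sizes of their differences are uncertain.

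Cyp3a13 averaged 10.94 in villi and 6.77 in crypts, against 6.91 in the E12 endoderm array, where it was above background. Villi were higher by 4.04 ± 0.46 (SE, adjusted p = 0.000474), and crypts differed by -0.14 ± 0.46 (SE, adjusted p = 0.836). Cyp2c65 and Cyp2d26 were also much higher in villi than in that array, by 3.19 and 4.41, with crypt differences of 0.07 and 0.04.

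Cyp4f14 and Cyp4f16 were higher than the E12 endoderm array in both adult compartments. Cyp4f14 averaged 12.39 in villi and 8.03 in crypts, against 5.80 in that array, with villi higher by 6.59 ± 0.54 (SE, adjusted p = 0.000127) and crypts by 2.23 ± 0.54 (SE, adjusted p = 0.0228). Cyp4f16 averaged 9.94 in villi and 7.53 in crypts, against 6.21, with villi higher by 3.73 ± 0.27 (SE, adjusted p = 9.01e-05) and crypts by 1.32 ± 0.27 (SE, adjusted p = 0.0124). A second Cyp4f16 probe set, of a cross-hybridizing type, gave 0.78 for crypts and missed the threshold in limma over all probe sets (adjusted p = 0.0723). Cyp2j6 averaged 7.78 in villi and 6.71 in crypts, against 6.00, with villi higher by 1.78 and crypts by 0.72 (adjusted p = 0.0456 for crypts).

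Of the 6 genes called in crypts, 3 had a larger difference from the E12 array in crypts than in villi. Cyp2d34 averaged 6.47 in villi and 6.87 in crypts, against 5.67 in the E12 endoderm array, and villi were higher by 0.80 and crypts by 1.20. Cyp2c54 averaged 7.10 in villi and 7.31 in crypts, against 6.36, and villi were higher by 0.73 and crypts by 0.95. Cyp4a12a averaged 5.95 in villi and 6.15 in crypts, against 5.36, and crypts were higher by 0.79, while villi differed by 0.60 and missed the threshold (adjusted p = 0.0532). Between villi and crypts themselves, no difference of these genes passed the test.

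The smaller villus differences included those of Cyp2c29, an arachidonic acid epoxygenase, at 0.84 ± 0.27 (SE, adjusted p = 0.0411), and of Cyp2c70, which makes the muricholic acids of mouse bile, at 0.62 ± 0.19 (SE, adjusted p = 0.0361). Both, and Cyp2c54, lost the call without villus array V275 or crypt array K21, and other single arrays also ended one or more of these calls.

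Several crypt calls depended on single arrays or on the scaling. Without crypt array K21 only Cyp4f16 and Cyp2d34 were called, and Cyp4f14 had an adjusted p of 0.0697 with a difference of 2.19. Calls over all 10082 genes tested then fell as well, from 2348 to 1357. Cyp2j6 missed the threshold without any of V12, V275, K12, K21 and K41 (differences 0.68 to 0.76), and Cyp4a12a also without K12 (0.82, adjusted p = 0.0528). After quantile normalization 4 members were called in crypts, without Cyp2j6 (adjusted p = 0.0784) and Cyp4a12a (adjusted p = 0.0623). The E12 array cannot be left out, since it is the only one.

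Cyp2s1 was well above background in all 3 epithelial groups, with means of 9.47 in villi and 8.98 in crypts, against 9.41 in the E12 endoderm array. Its differences from that array were 0.06 ± 0.27 in villi (SE, adjusted p = 0.88) and -0.44 ± 0.27 in crypts (SE, adjusted p = 0.274), and neither passed the test. Cyp2c68 averaged 8.57 in villi and 8.82 in crypts, against 7.98 in that array, with differences of 0.59 ± 0.51 in villi and 0.85 ± 0.51 in crypts (SE), and neither passed. Without villus array V41 the villus difference was 0.99 and passed (adjusted p = 0.044). The 5 genes higher in endoderm than in mesenchyme thus fell into those that were much higher in villi (Cyp3a13, Cyp2c65 and Cyp2d26) and those with no called difference between the epithelial groups when all arrays were used (Cyp2s1 and Cyp2c68).

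Cyp1b1 had 6.31 to 6.56 in villi, 6.29 to 6.88 in crypts and 6.27 in the E12 endoderm array, against 8.61 in the E12 mesenchyme array of the first table. For this probe set the mesenchyme array thus stood above all 7 others. The other Cyp1b1 probe sets were near background in the mesenchyme array, at 4.29 and 5.66. These were the highest value of the first table for the one and the lowest for the other.

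The other genes of the P450 system were followed by list. Between villi and crypts the shares over all genes tested were 16.9% higher and 15% lower. For electron transfer and heme, 17 genes were tested, and 5 were higher and 1 lower in villi than in crypts, with a median difference of 0.09. Pgrmc1, a heme protein that binds P450s, was higher by 1.66 and Cyb5a, the cytochrome b5 of the endoplasmic reticulum, by 1.48. Cyb5r3, cytochrome b5 reductase, was higher by 2.08, but a probe set that is not of a cross-hybridizing type gave -0.088. Uros, a step of heme synthesis, was lower by 0.81, a call lost without any one crypt array (differences -0.87 to -0.76). P450 reductase was not analysed here.

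Of 25 regulators tested, 7 were higher and 3 lower in villi than in crypts, against 16.9% and 15% of all genes tested. Nr1i2 had 9.65, 8.62 and 9.27 in villi, against 8.36, 7.97 and 7.78 in crypts, a difference of 1.15 ± 0.28 (SE, adjusted p = 0.0171). It missed the threshold without crypt array K21 (adjusted p = 0.0688) or K41 (adjusted p = 0.061). Nr1i3 was higher by 1.08. Hnf4a, a nuclear receptor of gut and liver epithelium, was higher by 0.91 ± 0.17 (SE, adjusted p = 0.00562), and its relative Hnf4g by 1.45, with overlapping groups. The Hnf4a probe set is of a cross-hybridizing type. With the median over probe sets Hnf4a differed by 0.71 and missed the threshold (adjusted p = 0.075). Without cross-hybridizing types it differed by 0.73 and missed it too (adjusted p = 0.0993). Hnf4g missed the threshold without V12, V275, K12 or K21 (differences 1.02 to 1.42). Foxa3 was lower by 1.43, and Ahr differed by -0.28 without passing the test. A second Ahr probe set, the one used between the E12 layers, leaned the other way. It had 6.93, 7.41 and 6.79 in villi, against 6.21, 6.38 and 6.56 in crypts.

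Among 13 genes of other P450 families, Cyp27a1, a sterol hydroxylase, and Cyp46a1, a cholesterol hydroxylase of brain, were higher in villi by 0.95 and 0.54. Of 23 other oxidation and hydrolysis enzymes, 11 were higher and 1 lower. Ces2a, a carboxylesterase, Aldh1a1, a retinal dehydrogenase, and Ephx2, the soluble epoxide hydrolase that acts on arachidonic epoxides, were higher by 3.88, 3.88 and 3.87. Ephx1, the microsomal epoxide hydrolase, was lower by 0.74, a call lost without crypt array K21 (-0.68, adjusted p = 0.0592). The call of Cyp46a1 was lost without V41, V275, K21 or K41 (differences 0.46 to 0.51).

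Between the E12 layers, 13 of 20 tested regulators were higher in endoderm and 2 lower, against 27.7% and 25.4% of all genes tested. Hnf4a had 10.52, 10.30 and 10.41 in endoderm, against 5.22, 5.62 and 6.21 in mesenchyme, and was higher by 4.73 ± 0.22 (SE, adjusted p = 5.01e-07). This Hnf4a probe set is of a cross-hybridizing type. Over all alternatives the Hnf4a difference was 0.98 to 4.99, and with an array left out 4.495 to 4.99, so its size depends on the processing. Foxa1 was higher by 7.07, Nr5a2 by 3.61 and Ahr by 0.58. The Ahr call was lost with the replicate number as a block (0.58, adjusted p = 0.0503) and without endoderm array 3 or mesenchyme array 3 or 4 (differences 0.39 to 0.54). Nr1i2 did not pass the filter in that table, with 4.62, 4.87 and 4.36 in endoderm.

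Of 17 electron transfer and heme genes, 8 were higher in E12 endoderm and 4 lower, against 27.7% and 25.4% of all genes tested, with Cpox at 1.17 and Blvrb at -1.11. Of 10 genes of other P450 families, 2 were higher and 3 lower: the oxysterol hydroxylase Cyp7b1 at -2.82 and the prostacyclin synthase Ptgis at -2.60 were, like Cyp1b1, higher in mesenchyme. Of 17 other oxidation enzymes, 8 were higher and 2 lower, with Akr1c13, an aldo-keto reductase, at 4.80 and Aldh1a1 at -7.53. The lower layer was near background for Cyp7b1, Akr1c13 and Aldh1a1, so the sizes of these differences are uncertain.

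Against the E12 endoderm array, 8 of 26 regulators were higher and 3 lower in villi, against 17% and 22.1% of all genes tested. In crypts 5 were higher and 1 lower, against 8.2% and 15.1%. Vdr, the vitamin D receptor, was higher by 4.59 in villi and 4.15 in crypts, with the E12 value of 5.17 near background, and Nr1i2 by 2.75 and 1.61, the crypt call of Nr1i2 being lost without K12 or K21 (differences 1.44 and 1.64). Hnf4a was higher by 1.53 in villi and differed by 0.62 in crypts (adjusted p = 0.096 for crypts). Of the 17 electron transfer and heme genes, 3 were higher in villi and 0 in crypts, and 0 were lower in either.

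The 17 members left untested in the first table were Cyp1a1, Cyp1a2, Cyp2c23, Cyp2c37, Cyp2c50, Cyp2d10, Cyp2d12, Cyp2f2, Cyp2g1, Cyp2j5, Cyp2j9, Cyp2j13, Cyp3a16, Cyp3a44, Cyp4a14, Cyp4a31 and Cyp4f18. A dim probe set does not show that a transcript is absent.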

How the data were processed

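The authors deposited log2 signals, made with RMA per the submitters' processing notes. RMA removes background, brings the arrays to 1 distribution and combines the probes of each set. For RMA's version and for a genome build, the entry is: not given in the sources used here. Arrays give no read depth, so their number limits the precision. Probe sets were named through the platforms' gene table, and all 49 member symbols were found in RefSeq GRCm38.p6, used for names, neighbours and promoter windows.

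Where a gene had several probe sets, the one with the highest mean in a fit stood for it. Genes above the 30th percentile of a table in at least 3 arrays were tested with limma 3.58.1 (lmFit, eBayes) in R 4.3.3. Adjustment (Benjamini-Hochberg) ran over all genes, which were called at an adjusted p under 0.05. Villi and crypts were fitted on the 6 adult arrays, the E12 layers on the second table (6 arrays), and the adult groups against E12 endoderm on all 8 arrays of the first table as 4 groups. The test was also run on simulated data, with means and spread taken from these arrays. It recovered 76% of 2-fold changes between villi and crypts and 98% between the E12 layers. For crypts and villi against E12 endoderm it recovered 31% and 24%. The share of false calls ranged from 4.55% to 7.09%. The adjustment depends on how many genes change, so these simulated shares need not hold for the real fits. There, every member that differed by 0.62 or more between villi and E12 endoderm was called. For crypts, Cyp3a25 (0.86), Cyp2c68 (0.85) and Cyp4f13 (0.80) were not called, so changes can be missed. Members and gene lists were chosen with earlier results of these data known. Adult samples are labelled as from a mouse and E12 samples as pools, and no label says whether arrays of the same number share a mouse or litter, so p-values measure only the spread between these samples.

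Every member could be named. Values in each array were given for the called members with the largest differences, for 1 member of each subfamily and for a fixed set of P450 genes. From the other lists, up to 3 called genes of largest change and Nr1i2, Ahr and Hnf4a were named.

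E12 samples carry numbers shared by the layers. Over tested genes, deviations of the same-numbered samples 2, 3 and 4 from their layer means correlated at 0.21, 0.23 and 0.11, and endoderm 3 with mesenchyme 4 at 0.13. Alternatives changed the probe set rule, the filter, the scaling, the prior, the arrays, the block and the groups in the fit.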

Additional observations from a re-analysis of the deposited data

How the results depend on the processing

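With each array left out in turn, 14 to 15 members were called between villi and crypts and 8 in each case between the E12 layers. Against E12 endoderm, 15 to 18 were called for villi and 2 to 6 for crypts. Over all genes tested the calls were 1974 to 3142 of 9962 and 4260 to 5242 of 9442. Against E12 endoderm they were 3314 to 3949 of 10082 for villi and 1357 to 2977 for crypts. The lowest crypt count came without crypt array K21, for members and for all genes. With the replicate number as a block, 13 members were called between villi and crypts, where Cyp2j6 was lost (0.98, adjusted p = 0.062), and 8 between the E12 layers. Over all 9962 genes tested between villi and crypts, calls fell from 3183 to 1260 with the block, which leaves little for estimating the spread. Lost calls there go with this general drop. Between the E12 layers 5089 of 9442 genes were called with the block. Of the list genes named, the block also ended the calls of Cyb5a (1.20, adjusted p = 0.1), Cyp27a1 (0.89, adjusted p = 0.0656), Uros, Hnf4a, Hnf4g, Nr1i2, Cyp46a1 and Ephx1 between villi and crypts. Villi and crypts share only the numbers 12 and 41, whose deviations correlated at 0.16 and 0.07, so they are not taken as pairs. The trended and robust prior called 1 member lower in villi. The E12 pair of the first table has 1 array a layer, so only its differences are given. They were 2.71 for Cyp2s1, 2.07 for Cyp3a13, 2.19 for Cyp2c68, 1.17 for Cyp2c65 and 1.31 for Cyp2d26. Cyp2d22 differed by -0.12, Cyp4f16 by -0.94 and Cyp1b1 by -2.34. Directions turned for uncalled differences and for Cyb5r3. Between villi and crypts, the median over probe sets gave 0.33 for Cyp1b1 and 0.19 for Ahr, the fit without cross-hybridizing types gave -0.088 for Cyb5r3, and the block gave -0.059 for Cyp4f15. For crypts against E12 endoderm the median gave -0.023 for Ahr. Leaving out an array gave -0.20 to 0.095 for Cyp1b1, -0.62 to 0.15 for Cyp2c68 and -0.071 to 0.076 for Cyp4f15 between villi and crypts, -0.46 to 0.058 for Cyp3a13 in crypts and -0.099 to 0.24 for Cyp2s1 in villi against E12 endoderm. The cause was not tested. Cyp2c65 could not be fitted without cross-hybridizing types, nor could Cyb5a, Foxa3, Nr1i3 and Ephx2 between villi and crypts. Cyp1b1 failed the filter with the median between the E12 layers. Dim probe sets bound what these arrays can show: 37 members between the E12 layers and 17 in the first table were not tested.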
